A study of Solea senegalensis with 8 samples.

Results

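The comparison described here is that of sole larvae at the climax of metamorphosis (Met) that differed in the temperature they had as embryos. Embryos of Senegalese sole, a flatfish, came from eggs that captive broodstock spawned naturally, and were incubated at 15°C or at 21°C in triplicate tanks. From hatching onwards both groups were reared at about 21°C and fed rotifers and later Artemia, so any difference at Met stands at a time when the water temperature was the same. Met was scored by the translocation of the eye, and was reached 15 days after hatching by the larvae from 15°C and 14 days after hatching by those from 21°C, so embryonic temperature and age in days cannot be told apart. Whole larvae were extracted, so for every miRNA fewer cells of a type and less RNA per cell cannot be told apart. Each group is 1 library from a pool of 3 samples, sequenced on the SOLiD platform. All 320 miRNAs of the deposited table were taken, out of 320 in the series, with no choice by value. With 1 library a side there is no replicate of the sequencing and no test of its difference at Met on its own. The study's qPCR at Met used 3 pools per temperature. It covered miR-206-3p, miR-26a, miR-199a-5p, miR-130c, miR-17a-5p and both strands of miR-181a. For these the study reports that the temperatures did not differ significantly at any stage after hatching. Folds given below for these miRNAs come from the sequenced libraries alone. Intervals in parentheses are exact, at 95%, and cover counting error only.

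MicroRNAs are short RNAs cut from hairpin precursors. One strand of the duplex, named 5p or 3p after its arm, is loaded into an Argonaute protein and guides it to messenger RNAs that pair with the first bases of the miRNA, which are then repressed or degraded. Many vertebrate miRNAs are tied to a tissue, such as miR-1, miR-133 and miR-206 in muscle, miR-122 in liver or miR-203 in skin, and at metamorphosis a flatfish rebuilds its skull, muscle, gut and skin.

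The 15°C library had 4965849 trimmed reads and the 21°C library 4247722. Of these, 2284973 reads at 15°C and 758723 at 21°C were miRNA reads, shares of 46.0% (46.0 to 46.1) and 17.9% (17.8 to 17.9). This share lay between 6.59% and 30.5% in the 6 libraries of earlier stages, so the 15°C library stood above all of them. Because the share was 2.58 times as high at 15°C, levels are given as reads per 1000000 miRNA reads (RPM) and differences as the log2 of the RPM at 21°C over that at 15°C. Taken per trimmed read instead, every log2 difference is lower by 1.37. Centring both libraries on the median miRNA lowers every difference by 0.25. Whether the miRNA share itself bears on single differences was not tested.

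In their general make-up the libraries were close to each other. miRNAs with at least 1 read numbered 275 at 15°C and 268 at 21°C, and the 15°C library would be expected to show 258.6 at the depth of the 21°C library. The numbers of miRNAs and of miRNA reads were recovered from the deposited values, and are lower than those the study lists. The 10 most abundant miRNAs held 47.6% of miRNA reads at 15°C and 47.3% at 21°C, and 12 and 11 miRNAs held 50% of them. miR-192, known from gut and liver, led at 15°C with 200181 reads, 8.76% of miRNA reads, and was second at 21°C with 50301 reads and 6.63%. miR-130c, of the family of miR-130 and miR-301, led at 21°C with 87184 reads and 11.5%, and was second at 15°C with 158895 reads and 6.95%. miR-125b-5p, a relative of the first miRNA found in worms, lin-4, came next in both with 121750 reads (5.33%) and 38874 reads (5.12%). miR-103a-3p, which acts on insulin signalling in mice, held 4.59% and 4.46%. A miRNA with no read can still hold up to 1.31 RPM at 15°C and 3.95 RPM at 21°C, the level of 3 reads.

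Most miRNAs lay close to their level in the other library. Differences were read for the 202 miRNAs with a mean of at least 20 RPM over both libraries, which held 99.96% of miRNA reads in each. Of these, 163 (80.7%) lay within 2-fold and 124 (61.4%) within 1.5-fold, with a median log2 difference of -0.0078 and quartiles of -0.49 and 0.49. At least 2-fold higher at 21°C were 19 miRNAs, 9.41% of those compared, and at least 2-fold lower were 20, or 9.9%. The 39 miRNAs past 2-fold made up 12.4% of the 15°C library's miRNA reads and 12.0% of the other's. They came from every range of abundance, 10 of 34 miRNAs between 20 and 100 RPM, 14 of 69 up to 1000, 11 of 72 up to 10000 and 4 of 27 above that. The split depends on the scaling, as 5 miRNAs were higher and 136 lower per trimmed read, and 15 higher and 29 lower with the libraries centred. Of the 19 higher miRNAs, 14 stayed above 0 per trimmed read and all 19 when centred. The other 5 were let-7h, miR-138a, miR-214-3p, miR-181a-5p and miR-129-5p. With differences of 4-fold, 8 were higher and 5 lower.

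**Figure D1:**
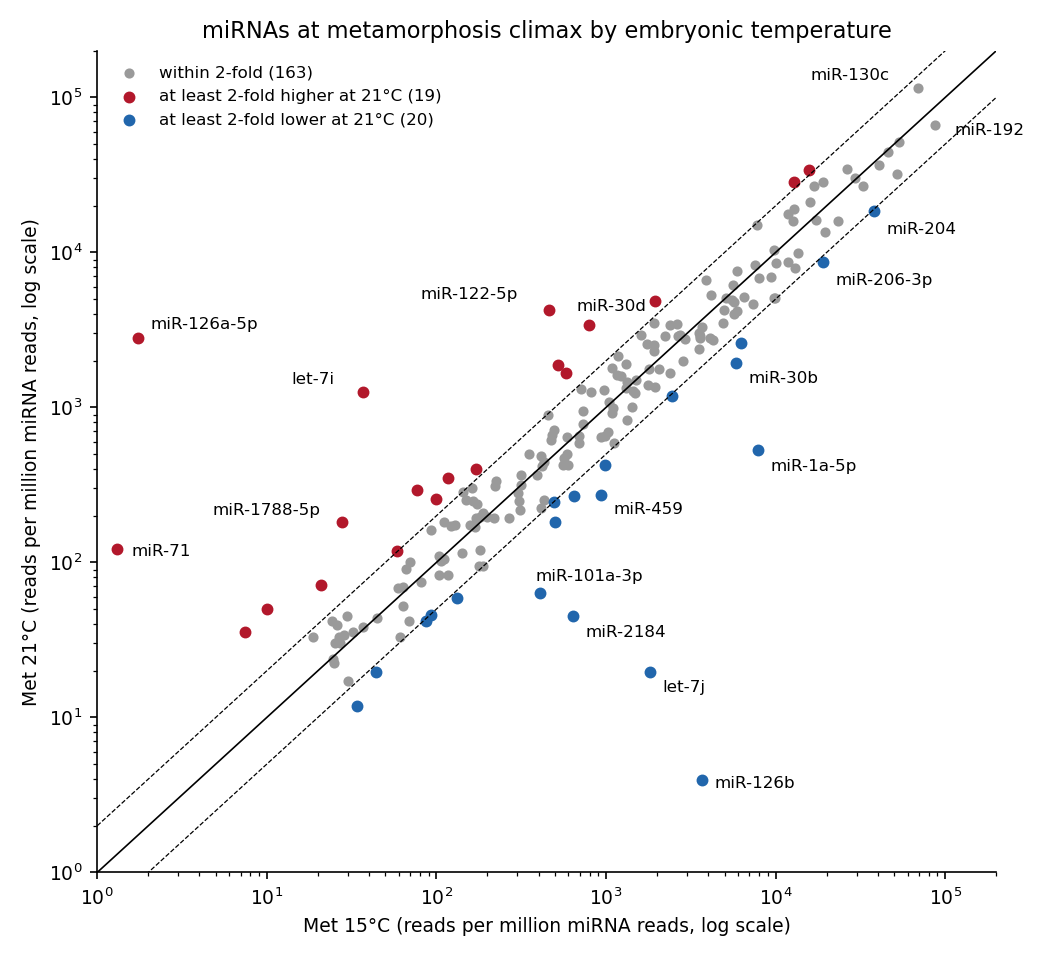
Each point is 1 of the 202 compared miRNAs, by its RPM in the Met 15°C library (x axis) and the Met 21°C library (y axis), both on log scales. The solid line marks equal levels and the dashed lines 2-fold. miR-71, with no read at 15°C, is drawn at 3 reads. The cloud of 163 grey points follows the line, with 19 red points above and 20 blue points below it, and per trimmed read all points would sit 1.37 log2 units lower.

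The largest differences in both directions came from the miR-126 names. miR-126 is made in endothelial cells from an intron of the gene Egfl7 and supports the growth and integrity of vessels. miR-126a-5p was read 4 times at 15°C and 2136 times at 21°C, which is 1.75 and 2815 RPM, a log2 difference of 10.65 and a fold of 1608 (627 to 5908). miR-126b had 8432 reads at 15°C and 3 at 21°C, or 3690 and 3.95 RPM, a log2 difference of -9.87 and 933 times as much at 15°C (319 to 4526). Each was thus nearly unread in the library where the other was abundant. The other strand of the precursor, miR-126a-3p, had 21587 and 5298 reads, or 9447 and 6983 RPM, a log2 difference of -0.44.

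Across the earlier stages miR-126a-5p was read in all libraries, and in none of them was it as low as at Met at 15°C. It had 17 and 15 reads at 75% epiboly (75Ep, 15°C and 21°C), 510 and 235 at the 20-somite stage (20S), and 2715 and 1584 in newly hatched larvae (Hatch). miR-126b had at most 2 reads in any of these 6 libraries. Only the Met 15°C library therefore departed from the pattern of the other 7, in which miR-126a-5p was read and miR-126b was at or near 0. miR-126b is close in sequence to miR-126a-3p, while miR-126a-5p comes from the opposite arm of the hairpin. Summed, miR-126b and miR-126a-3p took 30019 reads at 15°C and 5301 at 21°C, a ratio of 0.532 (0.516 to 0.548), or 1.88 times as much at 15°C. miR-126b and miR-126a-5p summed to 8436 and 2139 reads, a ratio of 0.764 (0.728 to 0.801), which lies within 2-fold. The deposited values do not let reads be reassigned among these miR-126 names, so the level of each alone is uncertain. A shift of reads from one name to another was not tested. These sums and the others below were chosen after the values were seen.

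A pair of let-7 names also differed in opposite directions. let-7 miRNAs accumulate as animals pass from larval to adult forms, first found in the worm, and act against proliferation. let-7i had 84 reads at 15°C and 952 at 21°C, or 36.8 and 1255 RPM, a log2 difference of 5.09 and a fold of 34.1 (27.3 to 43.2). let-7j had 4154 and 15 reads, or 1818 and 19.8 RPM, a log2 difference of -6.52 and 92.0 times as much at 15°C (55.7 to 164). Before Met let-7i had at most 1 read in a library, while let-7j had between 6 and 106. Summed, let-7i and let-7j had 4238 and 967 reads, a ratio of 0.687 (0.640 to 0.737), which lies within 2-fold. let-7 names are similar in sequence, and whether they share reads in the mapping was not tested.

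For the whole let-7 family of 10 names, all compared, 3 were at least 2-fold higher at 21°C and 2 lower, against 9.41% and 9.9% of all miRNAs compared. let-7b had 175 and 221 reads, a log2 difference of 1.93, and let-7h 392 and 303, a difference of 1.22 that turned negative per trimmed read. let-7f was the other lower one with 1129 and 186 reads and a difference of -1.01. The 2 most abundant members differed little. let-7a had 13053 reads at 15°C and 3649 at 21°C, a log2 difference of -0.25, and let-7g 11141 and 2675, a difference of -0.47. The family as a whole held 1.57% of miRNA reads at 15°C and 1.39% at 21°C.

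**Figure D2:**
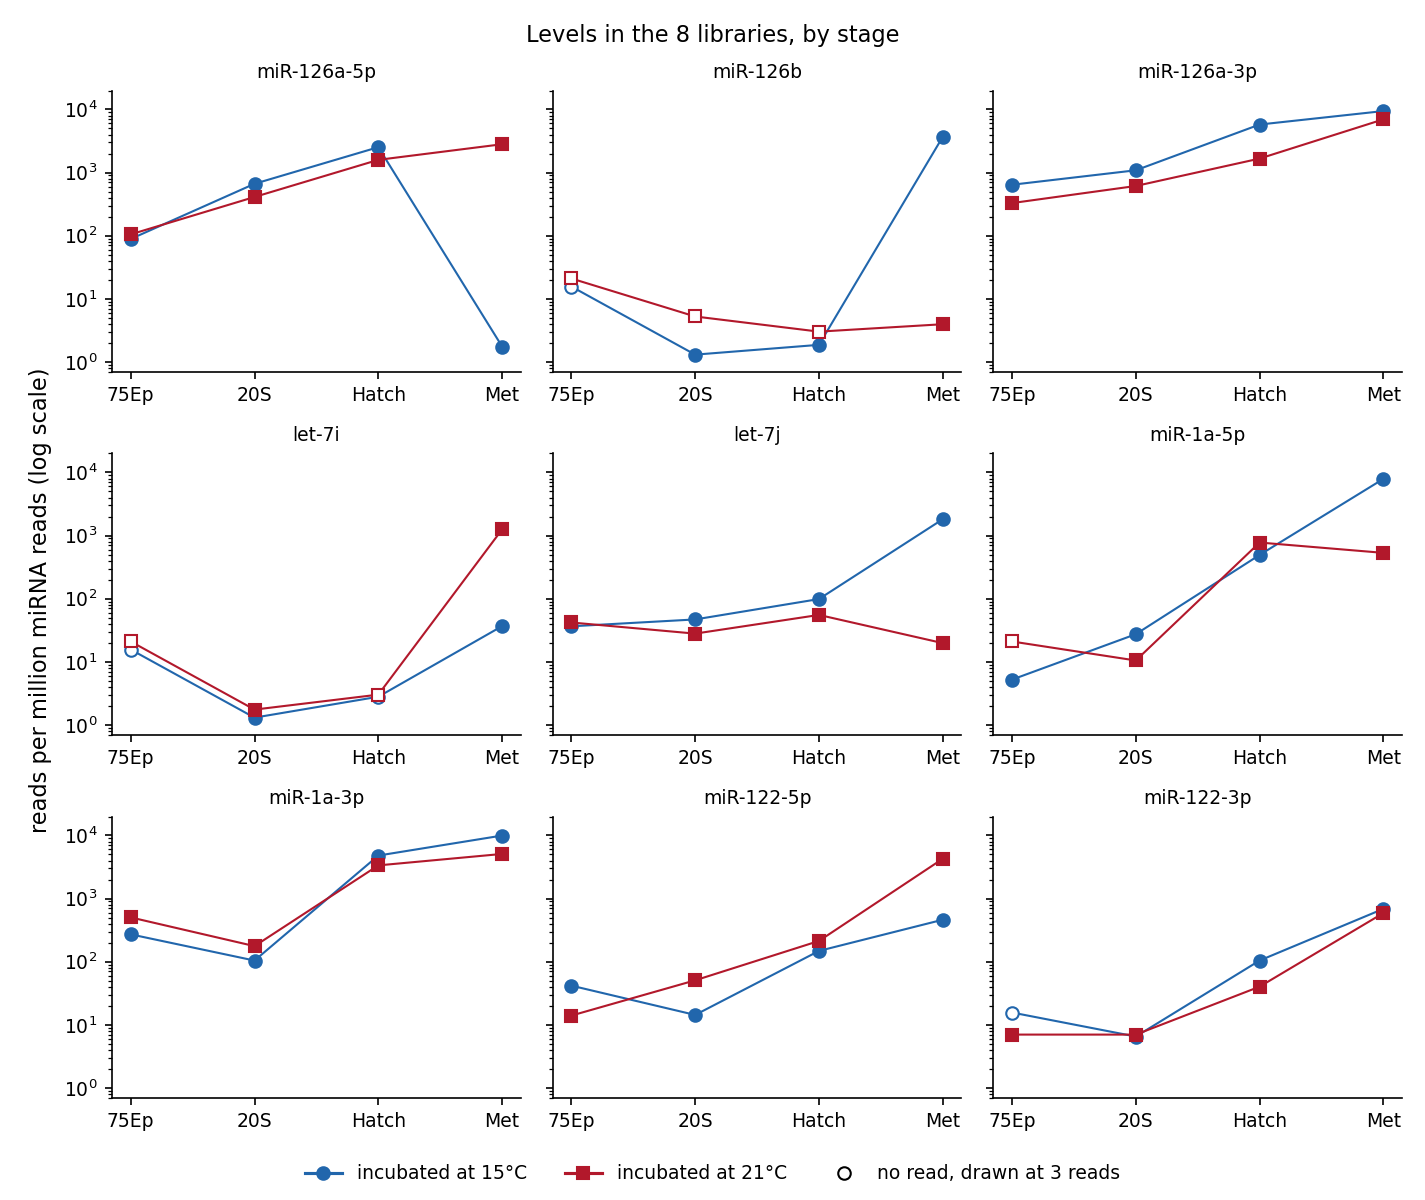
RPM (y axis, log scale) of 9 miRNAs in the 8 libraries, by stage (x axis), for embryos incubated at 15°C (blue circles) and 21°C (red squares). Each point is 1 library and open symbols had no read and are drawn at 3 reads. At Met and 15°C miR-126a-5p has 4 reads and miR-126b 8432, let-7i and let-7j part in opposite directions, and miR-1a-5p and miR-122-5p differ far more than their partner strands.

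Muscle miRNAs were lower in larvae from 21°C for miR-1a and miR-206-3p, and not for miR-133 by miRNA reads, although miR-133 was lower per trimmed read. The list of 14 names, with 10 compared, had none at least 2-fold higher and 2 lower, against 9.41% and 9.9% of all miRNAs compared, and a median log2 difference of -0.14 where that of all miRNAs was -0.0078. miR-206-3p, which promotes myoblast differentiation, had 43332 reads at 15°C and 6556 at 21°C, or 18964 and 8641 RPM, 2.19 times as much at 15°C (2.14 to 2.25). At Hatch its levels were 46939 and 47942 RPM, so the difference at Met was not seen in the libraries there. It was lower at 21°C at 20S too, with 18981 and 8600 RPM, and higher at 75Ep, with 1310 and 3434 RPM. miR-1a-3p, the strand known to act in vertebrate muscle, had 22809 and 3870 reads, 1.96 times as much at 15°C (1.89 to 2.03), just inside 2-fold. Its partner miR-1a-5p had 18109 and 404 reads, or 7925 and 532 RPM, a log2 difference of -3.90 and 14.9 times as much at 15°C (13.5 to 16.5). At Hatch the order of miR-1a-5p was the other way, with 494 and 776 RPM.

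Of the miR-133 names, which share transcripts with miR-1 and miR-206 in vertebrates and favour the proliferation of myoblasts, the 4 compared lay above 0 by miRNA reads, at 0.21 to 0.61, but all 4 lay below 0 per trimmed read and 1 of them when centred. miR-133a-5p had 6027 and 2614 reads and miR-133a-3p 2218 and 980, with log2 differences of 0.39 and 0.41. miR-499, from a myosin gene intron and known from heart and slow muscle, had 496 and 147 reads for its 5p strand, with an interval of the fold of 0.737 to 1.08 that includes 1. The summed muscle list held 4.18% of miRNA reads at 15°C and 2.07% at 21°C, 2.02 times as much at 15°C (1.98 to 2.05). miR-26a, which acts on the methyltransferase Ezh2 in myogenesis of mice, had 22499 and 3854 reads, 1.94 times as much at 15°C (1.87 to 2.01).

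miR-181 miRNAs, which act in myoblast differentiation in mice, took a larger part of miRNA reads at 21°C. All 4 members compared lay above 0 and 1 was at least 2-fold higher, beside 9.41% of all miRNAs, with a median of 0.56, but per trimmed read the median was -0.80 and all 4 lay below 0. miR-181a-5p had 36131 and 25924 reads, or 15812 and 34168 RPM, a fold of 2.16 (2.13 to 2.20) and a log2 difference of 1.11. miR-181b had 8927 and 5067 reads, a fold of 1.71 (1.65 to 1.77), and miR-181a-3p 13494 and 5715, a fold of 1.28 (1.24 to 1.32). The last of them, miR-181c, differed by less than its counting error, with 2373 and 827 reads and a fold of 1.05 (0.969 to 1.14).

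Liver and lipid miRNAs lay within 2-fold by miRNA reads, apart from 1 strand. miR-122-5p, the main miRNA of hepatocytes and a regulator of cholesterol and fatty acid synthesis, was read 1057 times at 15°C and 3248 times at 21°C, or 463 and 4281 RPM, a log2 difference of 3.21 and a fold of 9.25 (8.63 to 9.93). It remained above 2-fold per trimmed read and when centred. miR-122-3p, from the same hairpin, had 1573 and 448 reads, a log2 difference of -0.22. Both strands summed had 2630 and 3696 reads, a fold of 4.23 (4.02 to 4.45). Levels of miR-122-5p were 148 and 213 RPM at Hatch. The gut miRNAs miR-192 and miR-194a had log2 differences of -0.40 and -0.01. Of the lipid metabolism list, 7 of 8 members were compared. Only miR-122-5p passed 2-fold by miRNA reads, near the 9.41% of all miRNAs that were higher. Per trimmed read, 5 of these 7 and 3 of the 4 compared liver and gut miRNAs were at least 2-fold lower. miR-107-3p, with 22501 and 7910 reads, had a fold of 1.06 (1.03 to 1.09).

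In skeletal and connective tissue lists 0 of 4 cartilage miRNAs and 1 of 4 mesenchyme miRNAs passed 2-fold, too few to read against the 9.41% and 9.9% of all miRNAs. miR-140 and miR-455 are made in chondrocytes, and miR-199 with miR-214 come from one transcript of mesenchyme. The 4 cartilage strands lay above 0, with a median of 0.39, but all 4 lay below 0 per trimmed read and 1 when centred. miR-140-3p, the main strand, had 27214 reads at 15°C and 13473 at 21°C, a fold of 1.49 (1.46 to 1.52), and miR-140-5p 4396 and 1918, a fold of 1.31 (1.24 to 1.39). miR-214-3p had 29387 and 21537 reads, or 12861 and 28386 RPM, a fold of 2.21 (2.17 to 2.25), whereas per trimmed read its difference was -0.22. Its partner miR-214-5p had 16814 and 3503 reads, a log2 difference of -0.67, so the strands of this hairpin differed in opposite directions by miRNA reads. Per trimmed read all 4 compared mesenchyme miRNAs lay below 0. miR-199a-5p had 118514 and 24362 reads and a difference of -0.69, and miR-199a-3p 93579 and 27767 and a difference of -0.16. miR-29a, which acts on collagen transcripts in mammals, had 1484 and 204 reads, 2.42 times as much at 15°C (2.09 to 2.81).

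Of the miRNAs encoded in the Hox clusters, miR-10 and miR-196, the 5 compared lay below 0 in larvae from 21°C, where 103 of 202 did among all miRNAs. None passed 2-fold, too few members to read against the 9.41% and 9.9% of all miRNAs. They had log2 differences of -0.92 to -0.22 and a median of -0.54, and their summed share was 5.29% of miRNA reads at 15°C and 3.77% at 21°C. miR-10d had 52977 and 12107 reads, a difference of -0.54, and miR-10b 44609 and 10304, a difference of -0.52. miR-10a, with 2539 and 447 reads, stood lowest at -0.92. miR-196b, under the limit of 20 RPM, went the other way with 20 and 21 reads, or 8.75 and 27.7 RPM, a difference of 1.66. In the list of miR-99, miR-100 and miR-125, by contrast, 6 members were compared and lay on both sides of 0, from -0.71 for miR-100 to 0.57 for miR-125a.

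Among the families of proliferating tissue, miR-130, miR-301 and miR-454 took 12.0% of miRNA reads at 15°C and 18.3% at 21°C. That is 1.52 times as much at 21°C, and 1.73 times at Hatch. Shares were 1.92% at 15°C and 6.39% at 21°C at 75Ep, but 21.5% and 16.8% at 20S, the other way. Of 8 members compared, 6 lay above 0 and 1 was at least 2-fold higher, near the 9.41% of all miRNAs, but only that 1, miR-130a, lay above 0 per trimmed read. miR-130c had a fold of 1.65 (1.64 to 1.67), miR-130b-3p, with 43285 and 21674 reads, of 1.51 (1.48 to 1.53), and miR-301c, with 60034 and 26281 reads, of 1.32 (1.30 to 1.34). miR-130a had 17 and 27 reads, a log2 difference of 2.26 and a fold of 4.78 (2.51 to 9.35). In miR-17-92 and related clusters, which favour cell proliferation in mammals, 15 of 21 names were compared with a median of -0.01, 2 at least 2-fold higher and 0 lower (9.41% and 9.9% over all miRNAs). miR-92a had 1333 and 1271 reads, a difference of 1.52, and miR-18c 226 and 196, a difference of 1.39. miR-17a-5p, with 38580 and 20416 reads, had a fold of 1.59 (1.57 to 1.62). The miR-430 family, which clears maternal transcripts in zebrafish embryos, was down to 209 and 60 reads.

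By miRNA reads, miR-30 names differed in opposite directions within their family, which is known from the kidney and from heart and vessels. Of the 5 compared, 3 lay above 0 by miRNA reads and when centred. Per trimmed read only 1 did, miR-30d, and 4 lay below. miR-30b had 13392 reads at 15°C and 1478 at 21°C, or 5861 and 1948 RPM, 3.01 times as much at 15°C (2.85 to 3.18). miR-30c had 14320 and 1972 reads, 2.41 times as much at 15°C (2.30 to 2.53). miR-30d had 1804 and 2570 reads, or 790 and 3387 RPM, and was 4.29 times as high at 21°C (4.04 to 4.56). miR-30e had 4368 and 2661 reads, a fold of 1.83 (1.75 to 1.93). Together miR-30b and miR-30c were at 0.375 times their 15°C level, miR-30d and miR-30e at 2.55 times, and all 4 at 0.772 times (0.754 to 0.790).

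miR-101a-3p and miR-101b, of a family that acts on Ezh2 in mammals, were lower at 21°C. Scaling per trimmed read or centring lowers every difference, so neither could have reversed this. miR-101a-3p had 928 and 48 reads, or 406 and 63.3 RPM, a log2 difference of -2.68 and 6.42 times as much at 15°C (4.80 to 8.77). miR-101b had 1148 and 138 reads, a difference of -1.47, and both summed were at 0.270 times their 15°C level. Before Met miR-101a-3p had at most 4 reads in a library. miR-2184, at 4 to 12 reads in every earlier library, had 1467 reads at 15°C and 34 at 21°C, or 642 and 44.8 RPM, 14.3 times as much at 15°C (10.2 to 20.8). miR-459 had 2125 and 206 reads, 3.43 times as much at 15°C (2.97 to 3.97). For miR-101a-3p, miR-2184 and miR-459 both Met libraries stood above most earlier ones, and the Met 15°C library stood highest of all 8. This did not hold for miR-101b, with 818 RPM at 75Ep and 21°C beside 502 RPM at Met and 15°C.

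miR-210, which the hypoxia-inducible factor induces in vertebrate cells, was higher by miRNA reads on both strands in larvae from 21°C, while per trimmed read miR-210-3p stayed above 0 at 0.48 and miR-210-5p lay at -0.49. miR-210-3p had 1197 reads at 15°C and 1427 at 21°C, or 524 and 1881 RPM, a log2 difference of 1.84 and a fold of 3.59 (3.32 to 3.88). miR-210-5p had 2696 and 1639 reads, a difference of 0.87. The summed strands made up 0.170% and 0.404% of miRNA reads, 2.37 times as much at 21°C, and at Hatch the ratio was 3.60. Per trimmed read the summed log2 difference at Met was -0.12 in place of 1.25, and the median of the strands -0.0069 in place of 1.36.

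In the nervous system and eye most miRNAs lay within 2-fold by miRNA reads. Of 26 neuronal names 22 were compared, 3 at least 2-fold higher and 1 lower, against 9.41% and 9.9% of all miRNAs compared, with a median of 0.05. Per trimmed read, 16 of these 22 and 4 of the 7 compared of sensory organs and eye were at least 2-fold lower. miR-138a, enriched in brain, had 4439 and 3677 reads, a fold of 2.49 (2.39 to 2.61) but a log2 difference of -0.046 per trimmed read. miR-9a-3p, from a miRNA of neural progenitors, was the lower one with 5624 and 900 reads, 2.07 times as much at 15°C (1.93 to 2.23). miR-124-3p, the main miRNA of neurons, had 9777 and 2080 reads and a difference of -0.64, and miR-7a, with 11624 and 3873 reads, an interval of the fold of 0.967 to 1.04. miR-204, of the lens and pigmented epithelium of the eye, had 86954 and 14058 reads, or 38055 and 18529 RPM, 2.05 times as much at 15°C (2.02 to 2.09). The sensory miRNAs transcribed together, miR-182-5p, miR-183 and miR-96, had log2 differences of 0.47, -0.31 and 0.12.

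In the list of vessels and smooth muscle, 6 of 7 compared members lay below 0, where 103 of 202 did among all miRNAs, with a median of -0.44, and miR-126a-5p alone lay above. The summed share of the list was 5.18% of miRNA reads at 15°C and 4.15% at 21°C. Blood and skin lists had members on both sides of 0 by miRNA reads. miR-451 of red blood cells had 1295 and 357 reads, a log2 difference of -0.27. miR-142, of all blood lineages, had 198 and 32 reads, 2.05 times as much at 15°C (1.41 to 3.09), while miR-150 and miR-223-3p, of lymphoid and myeloid cells, had differences of 0.55 and 0.28. miR-145 of smooth muscle had 31129 and 7569 reads and a difference of -0.45. Of the skin list, 9 of 14 names were compared, miR-203a with a fold of 1.03 (1.01 to 1.05) and miR-205-5p with 1.32 (1.30 to 1.35). Only miR-205b passed 2-fold, with 23 and 38 reads and a fold of 4.98 (2.89 to 8.75). In each of these lists at most 1 member passed 2-fold in a direction by miRNA reads. That is near the 9.41% and 9.9% of all miRNAs compared, given the 2 to 9 members compared.

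**Figure D3:**
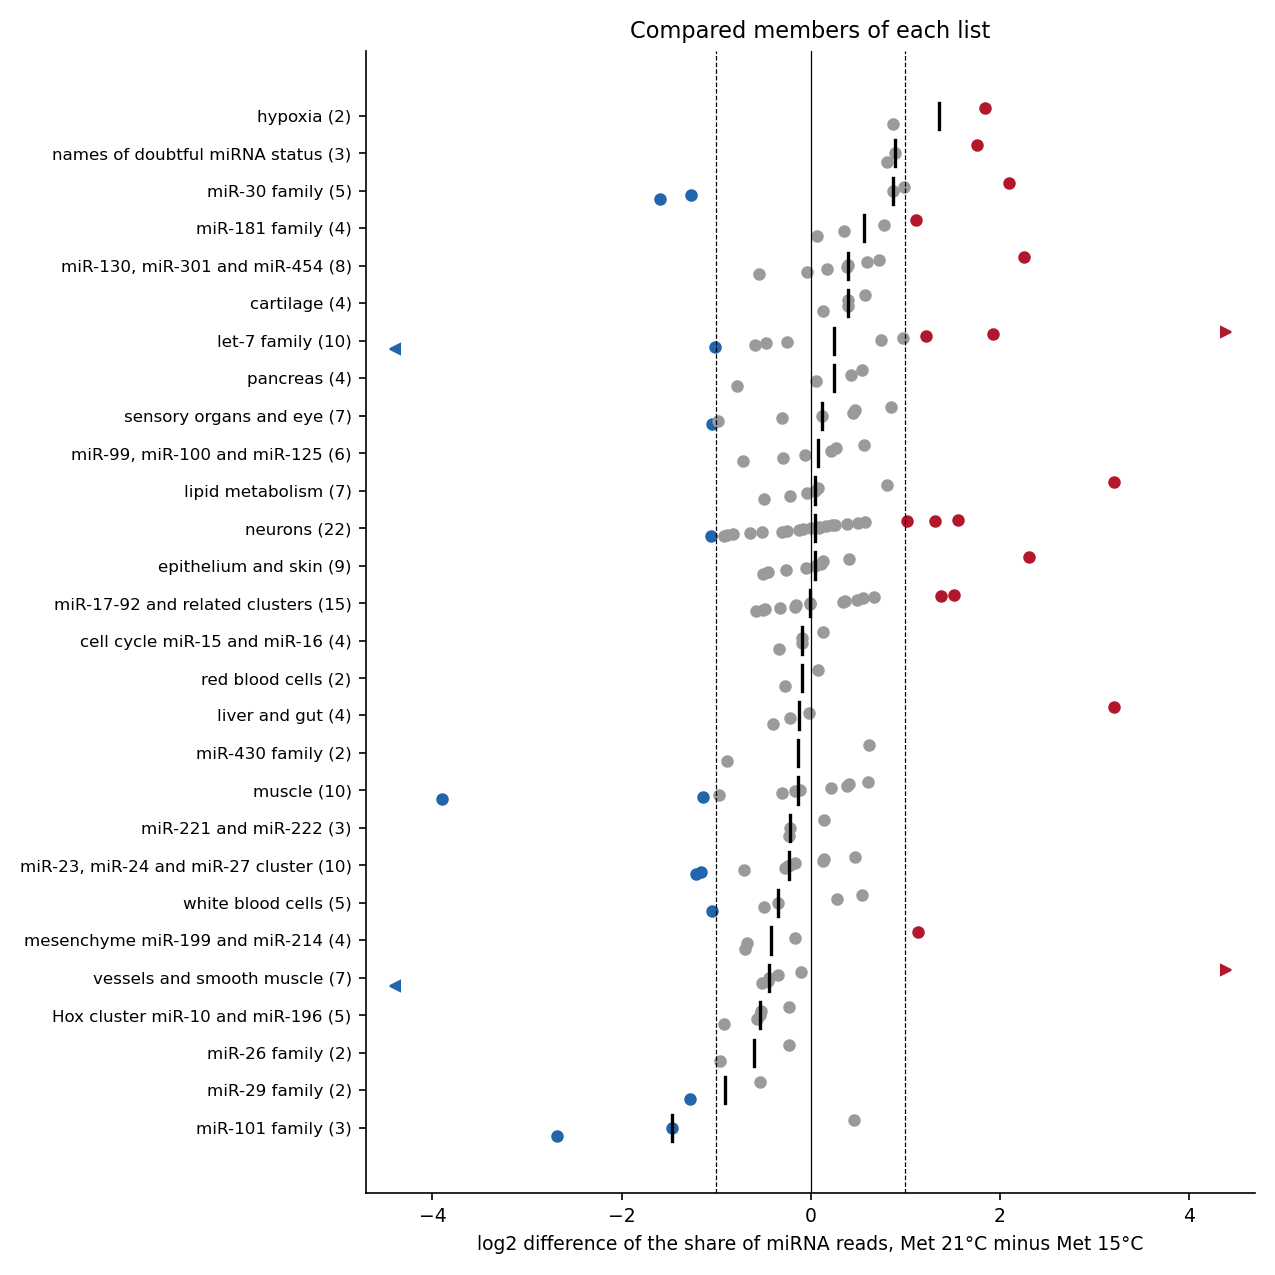
Log2 difference of RPM, 21°C minus 15°C at Met (x axis), of the compared members of each list with at least 2 of them (number in parentheses). Points are miRNAs, red at least 2-fold higher, blue at least 2-fold lower, triangles lie beyond 4.4, and black bars are medians. Medians run from 1.36 for the 2 strands of miR-210 to -1.47 for miR-101, and per trimmed read every point and bar moves down by 1.37.

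miR-71, a miRNA of invertebrates that vertebrate genomes lack, was read only at 21°C among the Met libraries. It had 0 reads at 15°C and 92 at 21°C, or 121 RPM, at least 92.4-fold higher than the 15°C level when that is set at 3 reads. Newly hatched larvae, sampled before they fed, had 15 reads (15°C) and 1 read (21°C), and 75Ep embryos 2 and 0. The other 4 names on the invertebrate list summed to 4 and 2 reads at Met, all of miR-72. Its sequence in the study's list is nearly that of miR-31, which had 430 and 158 reads, so these reads may not be of an invertebrate miRNA. The larvae at Met had fed on invertebrates, and the part of feed in this value was not tested.

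Differences in which strand of a hairpin was read do not depend on the scaling, since both strands share a library. Of 58 hairpins with both strands in the table, 44 had enough reads, and in 42 the same strand led in both Met libraries. The log2 ratio of 5p to 3p reads differed by a median of 0.80 between libraries, by under 0.5 in 15 hairpins and by at least 1 in 19, of which 12 lay toward 5p at 21°C and 7 toward 3p. miR-126a-5p made up 0.0185% of its hairpin's reads at 15°C (0.00505 to 0.0474) and 28.7% at 21°C (27.7 to 29.8). miR-122-5p made up 40.2% of miR-122 at 15°C and 87.9% at 21°C, so the leading strand was exchanged. For miR-1a the 5p strand made up 44.3% at 15°C and 9.45% at 21°C. miR-1788 had 8.01% and 36.7% on its 5p strand, with 63 and 139 reads there. miR-214-5p had 36.4% at 15°C and a smaller part at 21°C, with 3503 reads beside 21537 of miR-214-3p. The shift of miR-205 toward 3p rests on 6 and 23 reads of miR-205-3p beside 36650 and 16082 of miR-205-5p. miR-199a was the other hairpin in which the lead was exchanged, with 55.9% and 46.7% on 5p, and miR-140 kept its ratio with 13.9% and 12.5%.

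**Figure D4:**
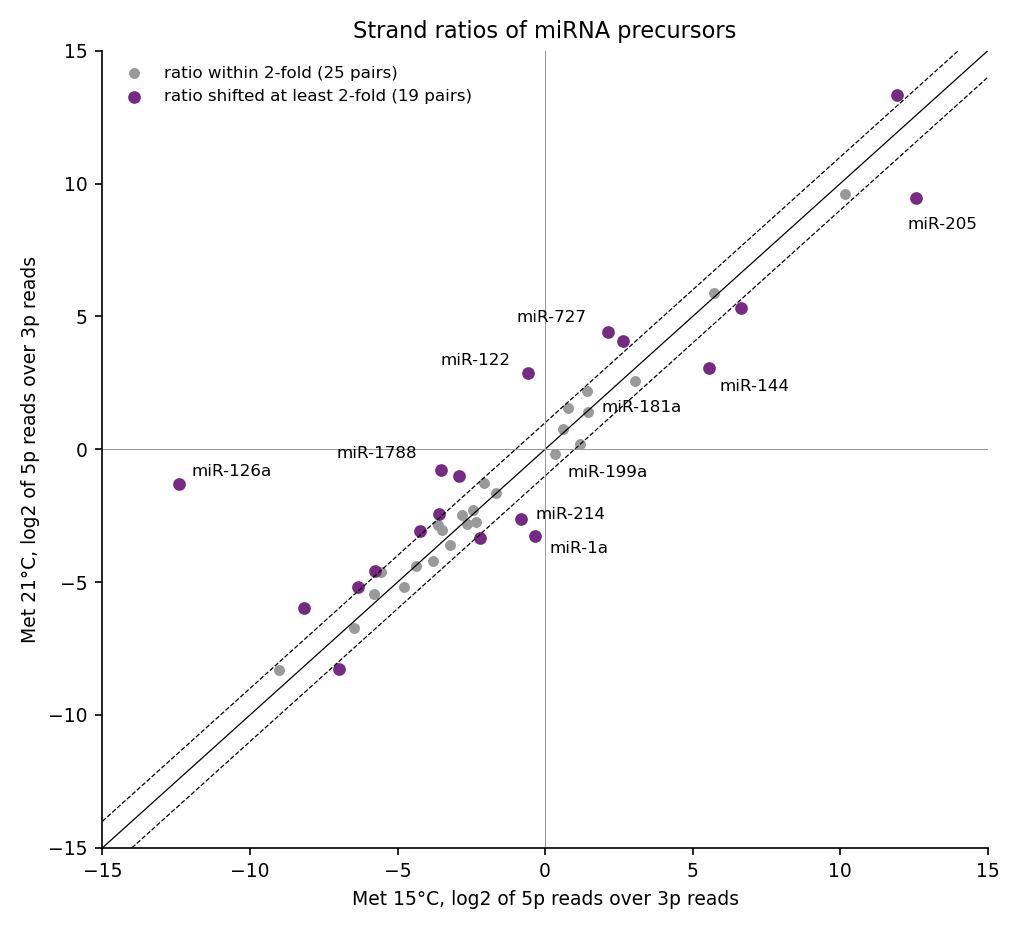
Log2 of 5p reads over 3p reads of 44 hairpins in the Met 15°C library (x axis) and the Met 21°C library (y axis). Each point is 1 hairpin, the solid line marks equal ratios, the dashed lines 2-fold, and the 19 purple points lie at or beyond them. miR-126a, miR-122, miR-205 and miR-1a stand farthest from the line, and most others follow it.

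To ask whether Met differed from the stages before it, the 21°C minus 15°C difference at Met was set against the mean difference at 75Ep, 20S and Hatch, whose spread served as error (limma, 8 libraries, stage and temperature as terms). With 208 miRNAs tested, 1 passed at an adjusted p under 0.05, which is 0.481%, and 5 had an unadjusted p under 0.05. miR-126a-5p passed (limma adjusted p = 0.0207), with a Met difference 10.85 log2 units above the earlier mean and a standard error of 0.97. No miRNA passed in the other direction. miR-126b, at -8.66 (standard error 1.49, adjusted p = 0.220), let-7j, at -6.03 (adjusted p = 0.231), and let-7i, at 4.77 (adjusted p = 0.444), did not pass in limma. Without 20S the adjusted p of miR-126a-5p was 0.127 and without Hatch 0.398, with no call in either, while without 75Ep it was 8.55e-04. The error has 2 residual degrees of freedom before moderation, and the groups of the earlier stages differed in water temperature when sampled, unlike those of Met.

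Differences at Hatch, the last stage before both groups shared a temperature, were set beside those at Met, with no library in common. For the 166 miRNAs with at least 20 RPM at both stages, the differences had a Pearson correlation of 0.073 and a Spearman correlation of 0.186 across miRNAs, which share libraries and are not replicates. The size of the differences was alike, with a median of 0.461 at Hatch and 0.487 at Met, without sign. Of 8 miRNAs at least 2-fold higher at Hatch, 2 were so at Met, miR-210-3p and miR-130a, and 0 were 2-fold lower. miR-130a had 10.2 and 43.2 RPM at Hatch and 7.44 and 35.6 at Met. Of 27 at least 2-fold lower at Hatch, 3 were so at Met, miR-30b, miR-459 and miR-458a-5p, and 0 were 2-fold higher. Among all 166 miRNAs, 13 were at least 2-fold higher at Met and 12 lower. Of the larger set compared at Met, 9.41% were higher and 9.9% lower. The 3 miRNAs that stood farthest apart at Hatch lay within 2-fold at Met. miR-101b-5p had a log2 difference of -8.05 at Hatch and 0.46 at Met, miR-216b, of the pancreas, one of 6.28 and -0.78, and miR-20a-5p one of -5.49 and -0.15. At Hatch miR-101b-5p had 287 and 1 reads, while miR-101a-5p had 5 and 104. miR-216b had 2 and 144 reads there. miR-20a-5p had 20229 and 416, while miR-106a had 759 and 3472 and miR-20b 1025 and 3321. Such opposite values were not limited to similar names. At 20S (15°C and 21°C) miR-147b had 5 and 1924 reads, while miR-148, next to it in the deposited list but unlike it in sequence, had 1681 and 0. These 20S values also enter the error of the limma fit. Whether names exchanged reads was not tested. Per trimmed read, no miRNA was at least 2-fold higher at both stages, and 10 were lower at both, miR-459 and miR-458a-5p among them.

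**Figure D5:**
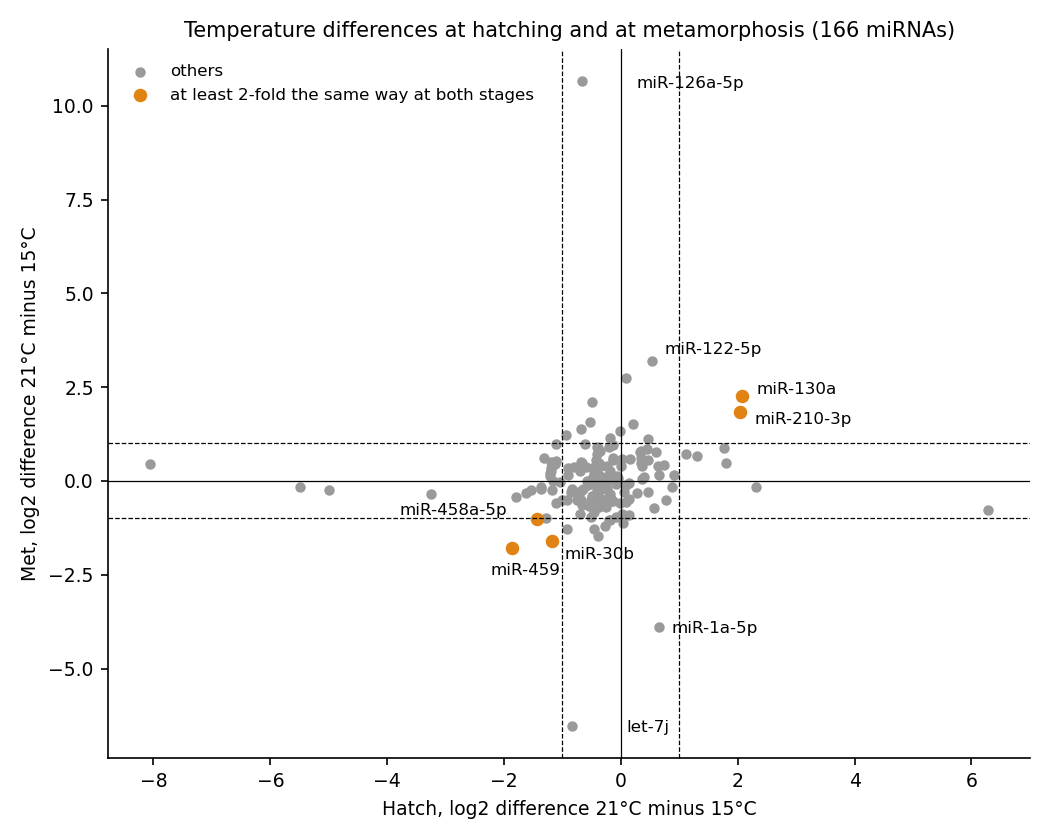
Log2 difference of RPM, 21°C minus 15°C, at Hatch (x axis) and at Met (y axis) for 166 miRNAs, 1 point each. Dashed lines mark 2-fold, and orange points passed it the same way at both stages. 2 orange points lie in the upper right and 3 in the lower left, and the farthest points of either stage lie within 2-fold at the other. Per trimmed read the points move down by 1.37 at Met.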

How the data were processed

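Small RNA of pooled samples was sequenced on SOLiD 4. The authors trimmed reads to 10 to 35 nt in CLC Genomics Workbench 4.9, took out other small RNAs with BLAST and mapped the rest to miRBase 18. The deposited values are the log2 of the percent of trimmed reads of each miRNA, with -46.51 for no read. Reads were recovered from the steps between low values, of which 99.5% were whole within 0.01 read (2033 values above the lowest, 10 not whole, none of these among the 543 of Met).

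Reads were divided by the summed miRNA reads. A miRNA with no read entered at 3 reads, as a bound. Folds have exact Clopper-Pearson intervals, conditional on both counts. Called means at least 2-fold, with no test. Strand pairs had at least 20 reads in each library and more than 3 on each strand in at least 1 library. The Met term was fitted with limma 3.58.1 in R 4.3.3 (variance trend, two-sided, 0.5 read added, mean of at least 20 RPM, Benjamini-Hochberg at 0.05), and scripts were tested on simulated data. Other steps used scipy 1.17.1, numpy 2.4.6, pandas 2.3.3 and matplotlib 3.10.9 under Python 3.11.15. Depth was 758723 to 2284973 miRNA reads at Met.

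Names were drawn from the 10 highest and 10 lowest differences, the 5 most abundant of each library and the miRNAs the study measured by qPCR. Also used were up to 4 members of each list by share, and all of short lists. The 5 largest strand shifts, the smallest limma p and the most read miRNAs of 1 library only completed the sets. Not every miRNA of these sets is named in the text. Other names were chosen after their values were seen. Members and lists were chosen with earlier results of these data known. Alternatives were per trimmed read, centred, without the most abundant miRNAs, other filters, 1 read added, family sums, other folds, and limma with other priors, no trend or 1 stage less. Counts of differences whose interval lies wholly beyond 2-fold, and the conditions on strand counts and on bounds, were added after the values were seen. miRNA sequences and positions entered no value here. The sequences that the study lists were read only for remarks on similar names.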

Additional observations from a re-analysis of the deposited data

Results flagged for a closer look

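miR-126a-5p was marked for a closer look because its difference between temperatures at Met departed from the mean of its differences at 75Ep, 20S and Hatch by 10.85 on the log2 scale, with a standard error of 0.97 and a limma adjusted p of 0.0207 over 208 miRNAs. It was the only miRNA of the 208 to pass. The Met library from 15°C had 4 reads of it, and the other 7 libraries between 15 and 2715. That same library had 8432 reads of miR-126b, and miR-126a-5p and miR-126b summed lay within 2-fold at Met, at a ratio of 0.764. These names come from opposite arms and are not similar in sequence. miR-126b is close in sequence to miR-126a-3p, and miR-126b and miR-126a-3p summed to a ratio of 0.532. Both sums were chosen after the values were seen, and a shift of reads between the names was not tested.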

How the results depend on the processing

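Against 19 higher and 20 lower at 21°C, 5 were higher and 136 lower per trimmed read, 33 higher with no filter, 12 lower with sums over family number and strand, 41 higher and 37 lower at 1.5-fold, 8 higher and 5 lower at 4-fold, and 13 lower with the counting interval wholly beyond 2-fold. Per trimmed read, differences turned to -0.046 for miR-138a, -0.25 for miR-181a-5p and -0.22 for miR-214-3p, and for miR-210 the median turned to -0.0069 and the summed share to -0.12, since all differences are lower by 1.37 there. In family sums let-7b and let-7i stand for the whole family at -0.18 and miR-30d at -0.37. limma gave 1 call, but 2 with 2 reads added (miR-126b, adjusted p = 0.0161), 0 without 20S and 0 without Hatch, where the cause was not tested, and the value of miR-126a-5p ranged from 9.42 to 11.16. Other limma settings kept 1 call. Strand ratios shifted at least 2-fold in 17 of 41 hairpins with at least 100 reads, and in 26 of 55 with no condition on strand counts. With 1 library a side, differences at Met measure these libraries only, and the depth limits miRNAs under 20 RPM. The limma fit pairs the temperatures by stage. No paired analysis was possible within Met because each group is 1 library and the labels carry no replicate numbers.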

Other observations

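Among the 118 miRNAs below 20 RPM, 83 had a read in at least 1 Met library and 35 in neither. Of all 320, 258 were read in both libraries, 17 only at 15°C, with at most 7 reads (miR-731), and 10 only at 21°C, where all but miR-71 had at most 2.

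Some names under the limit had intervals that lie away from 1. Those given here were thinly read, were picked after their values were seen, and are not the full set. miR-733, with 2 and 9 reads and a fold of 13.6 (2.81 to 129), is another. miR-205-3p, from the skin miRNA miR-205, had 6 reads at 15°C and 23 at 21°C, a fold of 11.5 (4.57 to 34.7). miR-144-3p, of red blood cells, had 5 and 10, a fold of 6.02 (1.88 to 22.5), while its partner miR-144-5p had 236 and 83, a fold of 1.06 (0.815 to 1.37). miR-27d, of the cluster of miR-23, miR-24 and miR-27, had 51 and 2 reads, 8.47 times as much at 15°C (2.23 to 71.8). The study lists the same mature sequence for miR-27c, so reads of these names cannot be told apart. miR-27c had 1092 and 501 reads, a log2 difference of 0.47 in the other direction. miR-202-5p, of the germ line, had 61 and 10, 2.03 times as much at 15°C (1.03 to 4.43). Of names whose standing as miRNAs is doubtful, 3 were compared and 1 passed 2-fold, miR-1623 with 48 and 54 reads and a fold of 3.39 (2.25 to 5.11). Its listed sequence largely overlaps that of miR-214-3p, which had 29387 and 21537 reads, and whether they share reads was not tested.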
